A study of Mus musculus with 40 samples.

Results

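The glucocorticoid receptor gene Nr3c1, the mineralocorticoid receptor gene Nr3c2, the receptor cochaperones Fkbp4 and Fkbp5, and the glucocorticoid-induced genes Sgk1, Tsc22d3 and Klf9 were followed in the cortex of mice given high-frequency head impact (HF-HI) with or without memantine. The 7 genes were chosen by name from a table of 6831 RefSeq transcripts of 5849 gene symbols, and each was present as 1 transcript. They were chosen with the values of the saline groups known, in which Nr3c1 was higher after HF-HI, so the values of that comparison are given as a description with no test. All mice were male C57BL/6 of 12 weeks by the labels (C57BL/6J in the study's methods). There were 4 groups with 10 libraries each, since sham mice and HF-HI mice were each given either saline or memantine. The series' design text speaks of 4 samples per group, and how the 10 labelled libraries relate to these was not settled, so n counts libraries and p values measure the spread between libraries. HF-HI is a series of closed-skull impacts given over several days under isoflurane, and sham mice had the same handling and anesthesia without impact. Memantine, an NMDA receptor antagonist, or saline was injected 1 h before each procedure. Cortex was taken 24 h after the last impact.

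Glucocorticoids released by the adrenal gland bind 2 nuclear receptors in the brain. The mineralocorticoid receptor has the higher affinity, and the glucocorticoid receptor is occupied mainly when hormone is high, at the daily peak or under stress. Unliganded receptor is held in the cytoplasm in a complex with HSP90 and an immunophilin. FKBP51, the product of Fkbp5, lowers hormone binding, and FKBP52, the product of Fkbp4, favors transport to the nucleus. There the receptor binds glucocorticoid response elements, which are palindromes of a short hexamer around a spacer. Fkbp5 is itself induced and closes a negative feedback loop, and liganded receptor can lower Nr3c1 mRNA in many tissues. Sgk1 encodes a serum- and glucocorticoid-regulated kinase, Tsc22d3 encodes GILZ, a glucocorticoid-induced leucine zipper protein, and Klf9 encodes a Krüppel-like transcription factor.

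The upstream sequences of Sgk1 and Tsc22d3 are shown because both genes varied most within groups. Promoter entries of RefSeq (GRCm38.p6) were taken for 13 transcription starts of 6 of the 7 genes. Starts of Nr3c1 were left out of this search, so the count for the chosen genes does not cover Nr3c1. The 250 bases before each of the 13 starts were searched on both strands for the hexamer AGAACA, whose reverse complement is TGTTCT. They were also searched for the full element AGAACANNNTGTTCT, which reads the same on both strands outside its spacer and contains 2 hexamers. A hexamer was found at 4 of the 13 starts (30.8%), which were 3 Sgk1 starts and 1 Tsc22d3 start, against 16.1% of 32851 starts of all genes. The full element was found at 3 of the 32851 starts (0.00913%), and 1 of these was an Sgk1 start. It spans chr10:21993701-21993715, and its first base lies 189 bases before that start and 965 bases before the start at 21994666 that the GENCODE table pairs with the Sgk1 transcript measured here. None of the 3 Tsc22d3 starts matched a start that table gives for the measured Tsc22d3 transcript. In the lines that follow, capitals mark hexamers, bases run 5′ to 3′ on the gene's strand, and bases inside an annotated exon were left out. No hexamer was present in the 250 bases before the measured Sgk1 start or before the starts of Fkbp5, Fkbp4, Klf9 and Nr3c2, which says only that these letters are not in those windows.
Sgk1, chr10:21993640-21993889, plus strand, before the start at 21993890: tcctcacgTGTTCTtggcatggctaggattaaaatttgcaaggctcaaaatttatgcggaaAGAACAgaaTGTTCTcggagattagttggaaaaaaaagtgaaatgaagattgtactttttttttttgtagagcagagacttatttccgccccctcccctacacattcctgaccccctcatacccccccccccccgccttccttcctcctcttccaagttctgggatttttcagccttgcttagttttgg
Sgk1, chr10:21994416-21994665, plus strand, before the start of the measured transcript at 21994666: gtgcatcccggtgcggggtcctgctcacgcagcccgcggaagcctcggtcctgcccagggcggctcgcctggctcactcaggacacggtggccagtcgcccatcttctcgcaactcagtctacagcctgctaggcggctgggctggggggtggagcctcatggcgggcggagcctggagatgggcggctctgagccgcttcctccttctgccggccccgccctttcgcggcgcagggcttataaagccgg
Tsc22d3, chrX:140600660-140600772, minus strand, before the start at 140600522: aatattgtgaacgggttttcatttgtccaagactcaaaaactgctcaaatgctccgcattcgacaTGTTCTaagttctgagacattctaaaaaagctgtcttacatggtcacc

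Counts here are normalised counts, the read count of a transcript divided by the size factor of its library. Library totals over the 6831 transcripts were 13322402 to 17529642 reads. The correlation of the 7 transcripts with library total, after removal of group means, was between -0.23 and 0.29. Per kilobase of transcript, mean levels over the 40 libraries were 973 for Klf9, 882 for Sgk1, 736 for Tsc22d3, 656 for Fkbp4, 620 for Nr3c1, 268 for Fkbp5 and 189 for Nr3c2. The upper part of this order was not fixed: Klf9 was above Sgk1 in 18 of 40 libraries, Sgk1 above Tsc22d3 in 29, Tsc22d3 above Fkbp4 in 27 and Fkbp4 above Nr3c1 in 31. Nr3c1 was above Fkbp5 in 40 of 40 libraries, and Fkbp5 above Nr3c2 in 39. RefSeq has 6 curated transcripts of Sgk1, 5 of Nr3c1 and 3 of Tsc22d3, so reads of other isoforms of these 3 genes were not part of the values. In whole cortex, fewer cells of a type and less RNA per cell cannot be told apart.

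Of the markers of cortical cell types, 12 of 12 neuronal, 10 of 10 astrocyte, 8 of 10 oligodendrocyte, 6 of 10 microglial and 4 of 10 endothelial symbols were in the table. A symbol not in the table may be one of lower expression, since every transcript there averaged at least 549 normalised counts. Striatal markers were present too (13 of 20 symbols), with a summed count (mean ± SD, n = 10) of 50697 ± 6581 in saline sham and 44492 ± 3743 in saline HF-HI. Under memantine it was 51035 ± 6396 in sham and 49109 ± 5671 in HF-HI mice. No defining marker of the neuronal, astrocyte, oligodendrocyte, microglial or endothelial lists was at 0 in any library. With means that high a 0 was unlikely in advance, so this is no check of the tissue. In each group, 1 of the 20 striatal transcripts was at 0 in at least 1 library. The summed microglial markers ranged from 5126 to 6308 in saline sham and from 5585 to 6272 in saline HF-HI, and under memantine from 5182 to 6099 in sham and from 5249 to 6388 in HF-HI mice.

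The 7 transcripts differed widely in how much they varied between mice of the same group. The within-group coefficient of variation was 42.6% for Sgk1, 24.5% for Tsc22d3 and 19.3% for Fkbp5, larger than for 95.4%, 85.1% and 79.1% of all transcripts. It was 7.13% for Klf9, 5.18% for Nr3c1, 5.16% for Fkbp4 and 4.75% for Nr3c2, against a median of 7.92% over all transcripts. The coefficient of variation from counting alone was 2.15% for Sgk1, 2.62% for Tsc22d3 and 3.24% for Fkbp5, far below the measured values, but 3.05% for Nr3c2 and 2.62% for Fkbp4, a larger part of their small spread.

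**Figure D1:**
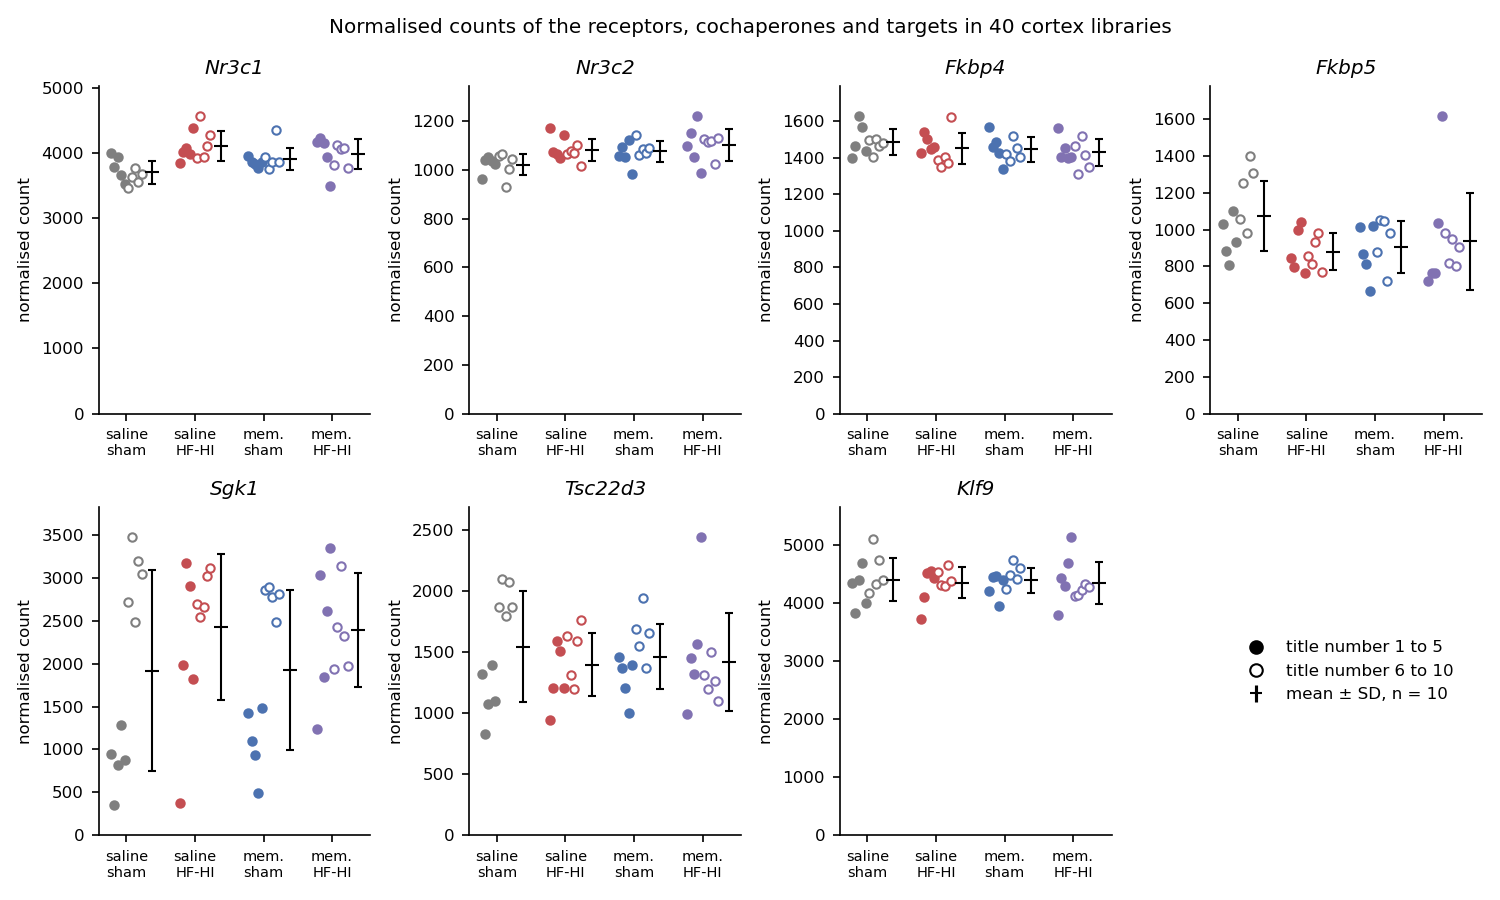
Normalised counts (y axis, from 0) of the 7 transcripts in every library of the 4 groups (x axis). Filled points are libraries whose titles carry the numbers 1 to 5, open points those with 6 to 10, and bars are mean ± SD of 10 libraries. Sgk1 in both sham groups falls into a low filled set and a high open set, while Nr3c1 and Nr3c2 are tightly grouped.

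Before the group comparisons, 1 feature of the libraries has to be given, since Sgk1 rests on it. The titles number the libraries 1 to 10 within each group, and Sgk1 in the sham groups split by that number. In saline sham, Sgk1 was 946, 347, 816, 1286 and 875 normalised counts in libraries 1 to 5, and 2720, 3476, 2488, 3199 and 3051 in libraries 6 to 10. In memantine sham it was 1430, 1102, 932, 490 and 1485 in libraries 1 to 5, and 2860, 2891, 2781, 2483 and 2809 in libraries 6 to 10. The 2 sets did not overlap in either sham group. Sgk1 and 11 other transcripts (12 of 6831, 0.176%) had libraries 6 to 10 all above libraries 1 to 5 in both sham groups, and these included the immediate early genes Arc and Nr4a1, the clock gene Per2, and the glucocorticoid-induced Errfi1. Cx3cr1 and Zc3h6 were the transcripts with the opposite order in both. These genes were named after their values were seen.

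After HF-HI the 2 sets of libraries were mixed. Saline HF-HI libraries 1 to 5 had 373, 1984, 3172, 2907 and 1823 normalised counts of Sgk1, and libraries 6 to 10 had 2701, 2543, 2667, 3021 and 3114. Memantine HF-HI libraries 1 to 5 had 1240, 3035, 1847, 2620 and 3355, and libraries 6 to 10 had 1943, 2432, 3140, 2326 and 1971. The sets overlapped in both HF-HI groups, and 9 of the 10 saline HF-HI libraries lay above the highest count of either low sham set.

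Tsc22d3 had the same order in saline sham, with 823 to 1394 in libraries 1 to 5 and 1795 to 2099 in libraries 6 to 10. In memantine sham its 2 sets met, at 1000 to 1455 and 1366 to 1943, and in both HF-HI groups they overlapped. The other 5 transcripts overlapped in every group. Over all transcripts, libraries 6 to 10 lay wholly above libraries 1 to 5 for 1.29% of them in saline sham and 0.717% in memantine sham, and after HF-HI for 0.264% under saline and 0.351% under memantine. The labels do not say what the numbers stand for, so a difference in day, cage or time of dissection between the sets cannot be told apart from any other. The clock markers, whose mean moved with Sgk1 (r = 0.62) and Tsc22d3 (r = 0.64) after removal of group means, are given for that reason, and their part in the split was not tested.

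The first comparison asked what HF-HI did in saline-treated mice, and it is the one on which the genes were chosen. Both receptor transcripts were higher after HF-HI and Fkbp5 was lower. Nr3c1 had a lowest, median and highest count of 3464, 3673 and 4000 in saline sham and 3843, 4046 and 4570 in saline HF-HI. The means were 3700 ± 173 and 4110 ± 230 (SD, n = 10), 11.1% higher, with 10 of 10 HF-HI libraries above the sham mean and 6 above the highest sham library. Nr3c2 was 931, 1039 and 1064 in saline sham and 1015, 1073 and 1172 in saline HF-HI, a difference of 6.00% between means of 1022 ± 44 and 1083 ± 45. For Nr3c2, 8 of 10 HF-HI libraries exceeded the highest sham library. For HF-HI libraries 3 and 6 this was close to a tie, at 1064.42 and 1064.39 against 1064.34.

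Fkbp5, the inhibitory cochaperone, was 810, 1044 and 1397 in saline sham and 764, 850 and 1038 in saline HF-HI (lowest, median and highest). Its means were 1075 ± 192 and 880 ± 101, and all 10 HF-HI libraries lay below the sham mean, although the ranges overlapped. Fkbp4 was 1486 ± 72 in saline sham and 1452 ± 85 in saline HF-HI, and Klf9 was 4395 ± 368 and 4345 ± 271. Tsc22d3 was 1541 ± 455 and 1393 ± 259, and Sgk1 was 1920 ± 1176 and 2431 ± 852. As a description of the choice and not as a test, Nr3c1, Nr3c2 and Fkbp5 were among the 9.53% of all transcripts with an unadjusted limma p under 0.05 in this comparison, and Nr3c1 was among the 0.205% with an adjusted p under 0.1.

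The same comparison was made within the 2 sets of title numbers. Nr3c1 was 7.39% higher after HF-HI in libraries 1 to 5 and 14.9% higher in libraries 6 to 10, and Nr3c2 was 7.55% and 4.44% higher. Fkbp5 was lower in both, with differences of -6.50% and -27.4%. Sgk1 was 140.3% higher in libraries 1 to 5 and differed by -5.95% in libraries 6 to 10. Tsc22d3 differed by 12.7% and -22.7%, Klf9 by 0.27% and -2.47%, and Fkbp4 by -1.57% and -3.02%. The sets gave opposite signs for Sgk1, Tsc22d3 and Klf9 and the same sign for Nr3c1, Nr3c2, Fkbp5 and Fkbp4. Because the sets were formed after the sham values of Sgk1 and Tsc22d3 were seen, the opposite signs of these genes follow in part from that choice. All of these differences are given with no test.

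Transcripts of several marker lists also passed unadjusted in this comparison, where 9.53% of all transcripts did. Of the striatal markers, 8 of 20 transcripts were lower in saline HF-HI at an unadjusted p under 0.05 by limma and none higher. With their mean as a covariate, the Nr3c1 difference was 0.086 on the deposited log2 scale, against 0.099 without it. Of 20 circadian clock transcripts, 6 were higher and 1 lower, and their summed count ranged from 34120 to 40645 in saline sham and from 34033 to 44215 in saline HF-HI. Of 6 microglial transcripts, 2 were higher and none lower, and of 4 endothelial transcripts likewise 2. Of 18 neuronal transcripts 2 were higher and 2 lower, and of 16 astrocyte and 16 oligodendrocyte transcripts 1 each was higher. The astrocyte one was Gfap, named after its value was seen, at 1253 ± 230 in saline sham and 1546 ± 347 in saline HF-HI. None of these lists had a member past an adjusted p of 0.1 here. The mean of the oligodendrocyte markers was also fitted as a covariate, and the other lists were not. The part of any of the lists in the differences of the receptors and Fkbp5 was not tested.

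The second comparison asked the same of memantine-treated mice, and none of the 7 transcripts passed. By limma, 0 of 7 had an unadjusted p under 0.05, where 4.61% of all transcripts did, and 0 had an adjusted p under 0.1, where 0.0146% did. Nr3c1 was 3749, 3860 and 4355 (lowest, median and highest) in memantine sham and 3485, 4068 and 4225 in memantine HF-HI. The means were 3905 ± 171 and 3982 ± 231, a difference of 1.97% (limma p = 0.414, adjusted p = 0.969), and the groups overlapped. Nr3c2 was 1076 ± 44 and 1103 ± 67, a difference of 2.43% (limma p = 0.287, adjusted p = 0.967). Fkbp5 was 905 ± 139 and 936 ± 262, a difference of 3.38% (limma p = 0.782, adjusted p = 0.993).

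The Fkbp5 value rested on 1 library. Memantine HF-HI library 5 had 1618 normalised counts, where the others were 719 to 1036, and without it the mean was 860 ± 111 (n = 9). The difference from memantine sham was then -5.00% (limma p = 0.480, adjusted p = 0.947). That library had the highest count of its group for Fkbp5, Sgk1, Tsc22d3 and Klf9 and the lowest for Nr3c1 and Nr3c2.

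Sgk1 was 24.1% higher in memantine HF-HI than in memantine sham (2391 ± 664 against 1926 ± 930, limma p = 0.235, adjusted p = 0.967). Within the sets of title numbers it was 122.4% higher in libraries 1 to 5 and differed by -14.5% in libraries 6 to 10. Tsc22d3 differed by 21.0% and -22.3% in the 2 sets. The sets were formed after the sham values of Sgk1 and Tsc22d3 were seen, so these differences follow in part from that choice and are given with no test. Fkbp4 (1447 ± 67 and 1430 ± 75) and Klf9 (4384 ± 220 and 4336 ± 361) differed by less than their SD.

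The impact difference of Nr3c1 under memantine minus that under saline was -0.081 ± 0.031 (SE) on the deposited log2 scale. That value contains the comparison on which the genes were chosen and is given without a test. The corresponding difference was 0.124 ± 0.064 for Fkbp5, -0.020 ± 0.018 for Nr3c2 and -0.021 ± 0.244 for Sgk1. The deposited scale compresses differences by an amount that depends on the count, so these values cannot be compared between genes. On log2 counts they were -0.124 ± 0.047 for Nr3c1, 0.301 ± 0.157 for Fkbp5, -0.051 ± 0.044 for Nr3c2 and -0.036 ± 0.537 for Sgk1.

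**Figure D2:**
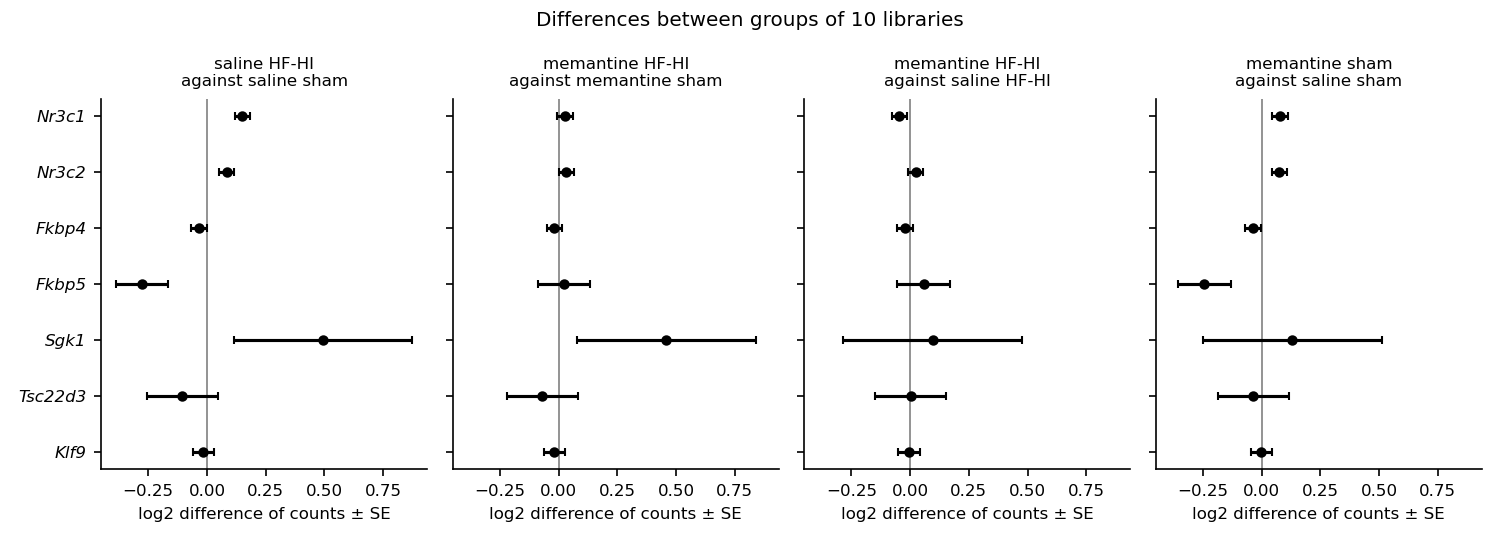
Differences between group means for the 7 transcripts (rows) in the 4 comparisons (panels), as log2 differences of normalised counts with SE from limma (x axis). Nr3c1 and Nr3c2 lie right of 0 and Fkbp5 left of 0 in the first and last panels, both of which have saline sham as the reference, and Sgk1 has the widest error in all 4.

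The drug itself was compared first in sham mice. Here the receptors were again higher and Fkbp5 again lower than in saline sham, but none passed the adjusted threshold. By limma, 3 of 7 had an unadjusted p under 0.05, where 7.51% of all transcripts did, and 0 of 7 an adjusted p under 0.1, where 0.0293% did. Nr3c1 was 5.55% higher (limma p = 0.0250, adjusted p = 0.634; permutation p = 0.0114), with 10 of 10 memantine sham libraries above the saline sham mean. Nr3c2 was 5.34% higher (limma p = 0.0236, adjusted p = 0.634; permutation p = 0.0102), with 9 of 10. Fkbp5 was lower, 905 ± 139 against 1075 ± 192 (a difference of -15.8%, limma p = 0.0378, adjusted p = 0.636; permutation p = 0.0364), and 10 of 10 lay below the saline sham mean. This comparison shares its 10 saline sham libraries with the one on which the genes were chosen, so the likeness of the 2 is no independent evidence. The clock markers moved here too, with 6 of 20 transcripts higher and 1 lower unadjusted and 2 higher at an adjusted p under 0.1 by limma, and a summed count of 37689 to 42835 in memantine sham. Their part in these differences was not tested.

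Single libraries carried the unadjusted p values. Without memantine sham library 9, which had 4355 normalised counts of Nr3c1 where the others had 3749 to 3959, the Nr3c1 difference was 4.20% (limma p = 0.0708, adjusted p = 0.517), and without saline sham library 6 the limma p was 0.0538 (adjusted p = 0.773). For Nr3c2 the limma p was 0.0520 without memantine sham library 6 (adjusted p = 0.734) and 0.0619 without saline sham library 8 (adjusted p = 0.707). For Fkbp5 the limma p rose above 0.05 when any of 8 libraries was left out, to at most 0.0902 (adjusted p = 0.659). These were saline sham 4, 7, 9 and 10 and memantine sham 2, 3, 4 and 9. Within the sets of title numbers, Nr3c1 was 2.08% and Nr3c2 3.80% higher in libraries 1 to 5, and Fkbp5 differed by -7.93%. In libraries 6 to 10 the differences were 9.18%, 6.88% and -22.0%. The sets were formed after the sham values of Sgk1 and Tsc22d3 were seen, so these differences are given with no test.

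In mice given HF-HI, memantine made no difference that passed. By limma, 0 of 7 had an unadjusted p under 0.05, where 3.91% of all transcripts (267 of 6831) did, and 0 of 6831 had an adjusted p under 0.1 (0%). Nr3c1 was 3982 ± 231 with memantine and 4110 ± 230 with saline, a difference of -3.11% (limma p = 0.172, adjusted p = 0.9995). Sgk1 was 2391 ± 664 and 2431 ± 852 (limma p = 0.926, adjusted p = 0.9997). Without saline HF-HI library 1, which had 373 normalised counts of Sgk1 where the others had 1823 to 3172, the saline mean was 2659 ± 479 (n = 9). The difference was then -10.1% (limma p = 0.542, adjusted p = 0.9995). Leaving out that library also moved the saline impact difference of Sgk1 from 26.6% to 38.5%.

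The 4 glucocorticoid-induced genes, Fkbp5, Sgk1, Tsc22d3 and Klf9, varied together from mouse to mouse within groups. After group means were removed, Pearson's r over 40 libraries was 0.86 for Sgk1 and Tsc22d3, 0.77 for Tsc22d3 and Klf9, 0.74 for Fkbp5 and Tsc22d3, 0.68 for Sgk1 and Klf9, 0.66 for Fkbp5 and Klf9, and 0.55 for Fkbp5 and Sgk1. Spearman's rho for the same pairs was 0.87, 0.61, 0.67, 0.51, 0.54 and 0.62. All 6 values were positive in the 20 sham and in the 20 HF-HI libraries separately, from 0.62 to 0.94 and from 0.38 to 0.87. Without the 2 libraries farthest from the median of 1 gene of the pair, r was 0.53 to 0.84. In saline HF-HI, Fkbp5 was at 0.26 with Tsc22d3, 0.34 with Sgk1 and 0.42 with Klf9. In memantine HF-HI it was at 0.89, 0.57 and 0.81, and library 5 there was the highest of its group for all 4 genes. The pairs without Fkbp5 were at 0.82 to 0.89 in saline HF-HI and 0.75 to 0.90 in memantine HF-HI. With the set of title numbers removed as well as group means, r over the 40 libraries was 0.78 for Sgk1 and Tsc22d3, and 0.75 for Fkbp5 and Tsc22d3. These points share their libraries and normalisation, and the values are a description.

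Fkbp4, the cochaperone of opposite action, did not follow the targets, with r between -0.21 and -0.03 for the 4. The receptor transcript Nr3c1 ran against Fkbp5 (r = -0.59, rho = -0.49; -0.40 in sham and -0.73 in HF-HI libraries). Without the 2 libraries farthest from the median of Nr3c1, r was -0.43. For Nr3c1 and Tsc22d3 r was -0.28, and for Nr3c1 with Sgk1 and Klf9 it was -0.06 and -0.17. Nr3c2 was at -0.26 to -0.17 with the 4 targets.

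**Figure D3:**
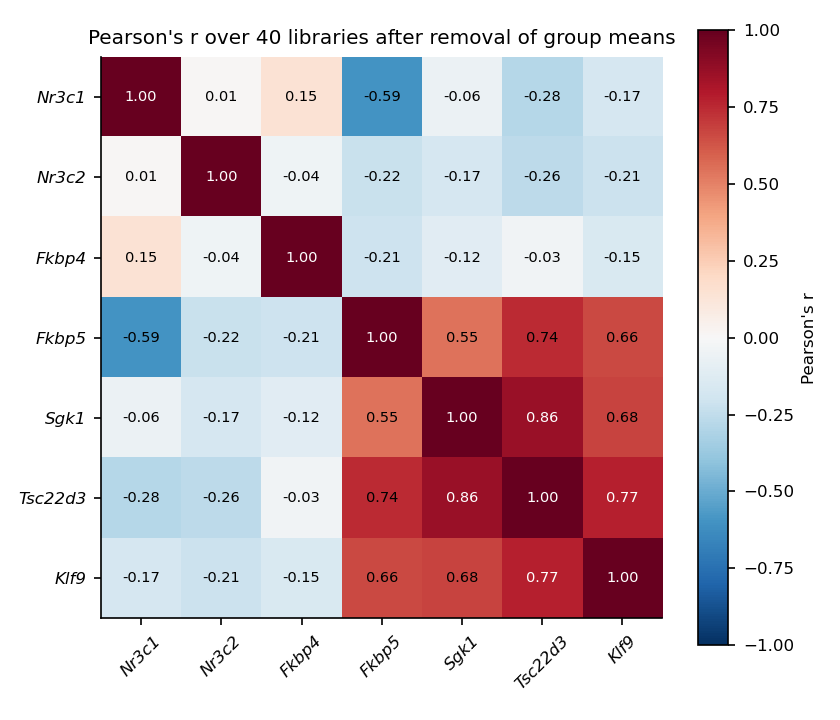
Pearson's r between the 7 transcripts (rows and columns) over 40 libraries after removal of group means, on the deposited log2 scale. Fkbp5, Sgk1, Tsc22d3 and Klf9 form a block with r from 0.55 to 0.86, and Nr3c1 is at -0.59 with Fkbp5.

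**Figure D4:**
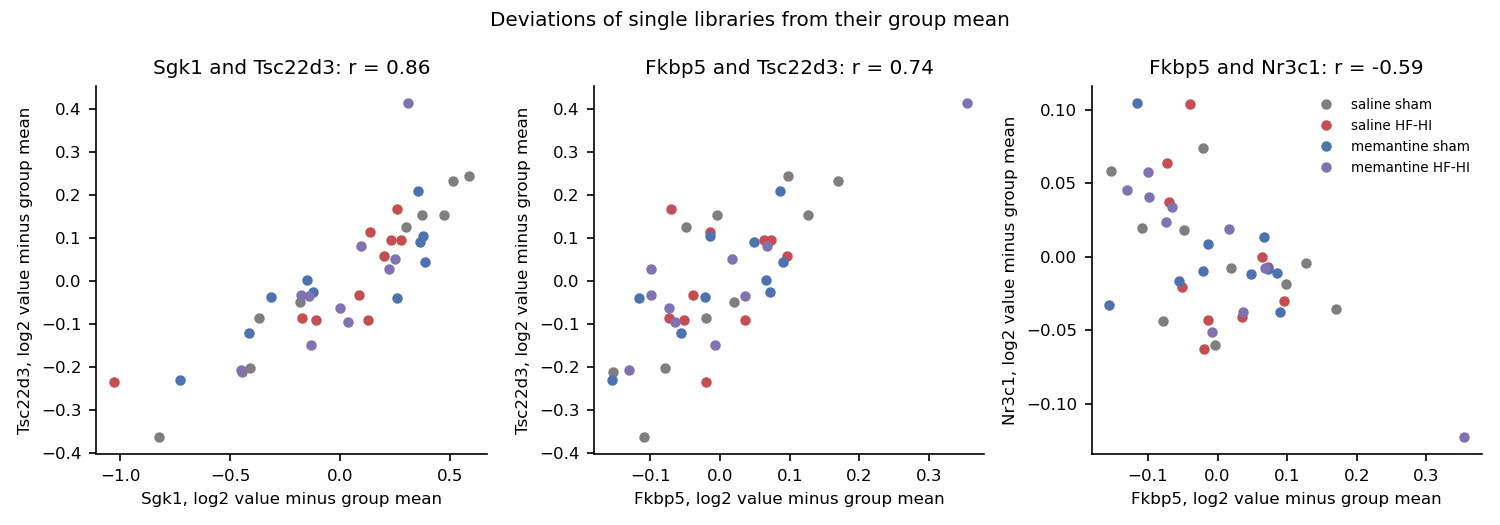
Deviation of each library from its group mean, in deposited log2 units, for Tsc22d3 (y) against Sgk1 (x), Tsc22d3 against Fkbp5, and Nr3c1 against Fkbp5, colored by group. The memantine HF-HI point at the far right of the last 2 panels is library 5, with 1618 normalised counts of Fkbp5 and 3485 of Nr3c1.

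Other glucocorticoid-induced genes varied with the 4 targets. Of a list of 32 symbols, 13 were in the table as 14 transcripts. Their median r with Tsc22d3 was 0.59, and 11 of 14 were above 0.5, where 1.51% of all transcripts were. With Fkbp5, 9 of 14 were above 0.5, where 0.835% of all transcripts were, with Klf9 8 of 14 (1.82%), and with Sgk1 7 of 14 (1.70%). With Nr3c1, the median was -0.29 and 1 of 14 was above 0. Plin4, a lipid droplet protein gene, was at 0.87 with Fkbp5 and 0.84 with Tsc22d3. Errfi1, a feedback inhibitor of the EGF receptor, was at 0.84 with Tsc22d3, and the transcription factor gene Zbtb16 was at 0.83 with Klf9 and 0.78 with Tsc22d3. The metallothionein gene Mt1 was at 0.68 with both Fkbp5 and Tsc22d3, and Glul, the glutamine synthetase gene, at 0.63 with Fkbp5. Mertk, a phagocytic receptor tyrosine kinase gene, was at 0.69 with Fkbp5 and at -0.67 with Nr3c1. Sesn1 was at 0.03 with Tsc22d3, and 1 of the 2 Bcl2l1 transcripts at 0.18. The genes named here beyond those with the smallest p in a comparison were chosen after their values were seen.

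The same 14 transcripts were compared between groups. In memantine HF-HI against memantine sham, 1 was higher and 2 lower at an unadjusted p under 0.05 by limma, where 4.61% of all transcripts passed, and 0 passed at an adjusted p under 0.1. These were Sesn1 (15.6% higher, p = 0.0416, adjusted p = 0.967), a Bcl2l1 transcript (-17.2%, p = 0.00233, adjusted p = 0.809) and Mertk (-7.01%, p = 0.0454, adjusted p = 0.967). In memantine sham against saline sham, Mt1 was the 1 of 14 that passed unadjusted, where 7.51% of all transcripts did (1136 ± 87 against 1269 ± 115, limma p = 0.0195, adjusted p = 0.616). After HF-HI in saline-treated mice, 2 of 14 were higher and 1 lower, where 9.53% of all transcripts passed. Per1 was 1153 ± 292 and 1446 ± 306 in saline sham and HF-HI, Glul was 25422 ± 1359 and 26360 ± 631, and Mertk was 1324 ± 133 and 1223 ± 75.

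Transcripts most like Nr3c1 over the 40 libraries, after removal of group means, were those of Slc16a1 (r = 0.75), Ermn (0.68), Ccp110 (0.66), Car2 (0.66) and Ugt8a (0.65). The mean of the oligodendrocyte markers was at 0.36 with Nr3c1, and that of the microglial markers at 0.52 with Nr3c1 and at -0.69 with Fkbp5. With Tsc22d3, Sgk1 and Klf9 the microglial markers were at -0.58, -0.57 and -0.45. Cx3cr1, a microglial receptor gene, had the lowest r of all transcripts with both Fkbp5 (-0.75) and Tsc22d3 (-0.75). Whether the share of microglia had a part in these values was not tested.

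The machinery around the receptor was compared through 2 further lists. All 18 chaperone and immunophilin symbols were present as 20 transcripts, Fkbp4 and Fkbp5 among them. In memantine sham against saline sham, 5 of 20 were lower and 0 higher at an unadjusted p under 0.05 by limma, where 7.51% of all transcripts passed in either direction, and 0 passed at an adjusted p under 0.1. The list's median difference was -0.023 on the deposited log2 scale, against -0.00028 for all transcripts. Hspa4, an HSP110-family nucleotide exchange factor gene, was 5105 ± 142 against 5383 ± 238 (limma p = 0.00636, adjusted p = 0.511), Dnaja1, an HSP40 gene, was 3437 ± 277 against 3758 ± 357 (limma p = 0.0273, adjusted p = 0.634), and St13, the HSP70-interacting protein gene, was 2245 ± 134 against 2353 ± 94 (limma p = 0.0376, adjusted p = 0.636). In memantine HF-HI against memantine sham, 2 of 20 were higher and 2 lower, where 4.61% of all transcripts passed. The smallest p values were those of 2 Fkbp8 transcripts that moved in opposite directions, 1552 ± 287 to 1206 ± 187 (limma p = 0.00419, adjusted p = 0.860) and 914 ± 252 to 1198 ± 256 (limma p = 0.0131, adjusted p = 0.967), whose reads could be split between them by the counting. Ppp5c, a phosphatase of the receptor complex, was 1355 ± 41 and 1293 ± 37 (limma p = 0.0289, adjusted p = 0.967).

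All 18 coregulator symbols were present as 25 transcripts. None passed unadjusted in memantine HF-HI against memantine sham, where 4.61% of all transcripts did, or against saline HF-HI, where 3.91% did. In memantine sham, 2 of 25 were higher than in saline sham, a share near the 7.51% of all transcripts. These were Smarca2, an ATPase of the SWI/SNF remodeler (5.17% higher, limma p = 0.00898, adjusted p = 0.554), and Carm1, an arginine methyltransferase coactivator (13.2% higher, limma p = 0.0193, adjusted p = 0.616). In mice given HF-HI, memantine against saline, 2 of the 20 chaperone transcripts were lower and 0 higher unadjusted, where 3.91% of all transcripts passed in either direction. Ppp5c had the smallest p (1293 ± 37 against 1374 ± 81, limma p = 0.00609, adjusted p = 0.9995). Of 11 symbols for corticosteroid metabolism and the stress axis, only Abcb1a, the drug efflux transporter gene that also exports corticosteroids, was in the table.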

How the data were processed

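RNA-seq of cortex was measured in 40 libraries, 10 per group, grouped by the labels. The authors deposited 1 table of variance-stabilised log2 values for 6831 RefSeq transcripts, made with DESeq2. The study's methods name STAR and eXpress on mm10, and the submitters' processing notes name HISAT2 and StringTie; which made the table was not settled. The deposited log2 values have a floor of 10.36 at a count of 0, and inverting the transformation gave normalised counts. All values under 5000 were whole reads over a size factor (tolerance 0.1), so library totals are known. Every transcript had a mean of at least 549 normalised counts, so genes of lower expression were not analysed here.

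Groups were compared with limma 3.58.1 (R 4.3.3; moderated test with an intensity trend, two-sided) on the deposited values of all 40 libraries, 1 term per group, with Benjamini-Hochberg adjustment over all 6831 transcripts. Calls were an adjusted p under 0.1 and, as a second count, an unadjusted p under 0.05. Single transcripts were also compared by two-sided permutation of libraries (100000 resamples). Limma was tested on simulated data. Percent differences are between mean counts. The 7 genes, the other lists and the sets of title numbers were chosen with earlier results of these data known. Named genes are the 7, the 5 transcripts most like Nr3c1, and the 3 smallest p values per described list and comparison; others are marked as chosen after their values were seen. Mice were housed in groups, and p values measure the spread between libraries. Promoter sequences came from RefSeq GRCm38.p6 (mm10).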

Additional observations from a re-analysis of the deposited data

Results flagged for a closer look

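Of the 28 combinations of 7 transcripts and 4 groups, 4 held a library whose gap to its nearest neighbour took a larger share of the group's range than Dixon's 95% limit of 0.466 for 10 values. Chance gives about 1 in 20 such groups. Nr3c1 in memantine sham library 9 was 4354.9 normalised counts, and the next library had 3959. Fkbp5 in memantine HF-HI library 5 was 1618.31, and the next had 1036. Tsc22d3 in the same library was 2438.1, and the next had 1567. Without it, the Tsc22d3 mean of memantine HF-HI was 1300 ± 187 (n = 9). The difference from memantine sham went from -3.27% to -11.1% (limma p = 0.265, adjusted p = 0.937). Sgk1 in saline HF-HI library 1 was 372.76, and the next had 1823. No cause was tested for any of the 4.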

How the results depend on the processing

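Changes of direction or of side of the threshold follow, in deposited log2 units unless said, and their cause was not tested. The count of the 7 with an adjusted p under 0.1 was 0 in each of the 3 tested comparisons under every alternative, and lowering the threshold to an unadjusted p under 0.05 gave 3 in memantine sham against saline sham. That 3 ranged from 1 to 3 when single libraries were left out, as did the summed-transcript count of 3. It differed between the sets of title numbers. These were formed after the sham values of Sgk1 and Tsc22d3 were seen, so no count is given within them. A count minimum of 1000 removed Fkbp5 and left 2. In memantine HF-HI against memantine sham and against saline HF-HI the unadjusted count was 0, also when single libraries were left out. For the same reason no count is given within the sets of title numbers, where only Sgk1 or Tsc22d3 changed side of the threshold. The Nr3c1 difference of saline HF-HI was 0.099, ranged from 0.087 to 0.107 with single libraries left out, and was 0.15 on log2 counts; its interaction of -0.081 ranged from -0.089 to -0.067. Over the 4 comparisons and the interaction, Klf9 changed sign in 32 of 200 fits with 1 library left out, Sgk1 in 27, Tsc22d3 in 11, Fkbp5 in 4, and Nr3c1, Nr3c2 and Fkbp4 in 0. In saline HF-HI against saline sham Klf9 ranged from -0.025 to 0.0062, and the interaction ranged from -0.14 to 0.070 for Sgk1, -0.020 to 0.013 for Klf9 and -0.018 to 0.068 for Tsc22d3. In the tested comparisons, sign changes occurred in values that had not passed. In memantine HF-HI against memantine sham, libraries 6 to 10 gave -0.025 for Fkbp5 and -0.14 for Sgk1, libraries 1 to 5 gave 0.037 for Klf9 and 0.11 for Tsc22d3, and leaving out single libraries gave -0.027 to 0.027 for Fkbp5 and -0.031 to 0.0024 for Klf9. Within HF-HI mice, memantine against saline, library weights gave -0.016 for Sgk1 and -0.010 for Tsc22d3, the oligodendrocyte covariate -0.0011 for Tsc22d3, the striatal covariate 0.012 for Klf9, libraries 6 to 10 -0.15 for Sgk1 and -0.11 for Tsc22d3, and libraries 1 to 5 0.043 for Klf9; leaving out single libraries gave -0.013 to 0.041 for Fkbp5, -0.098 to 0.066 for Sgk1, -0.021 to 0.012 for Klf9 and -0.042 to 0.026 for Tsc22d3. In memantine sham against saline sham, library weights gave -0.013 and libraries 6 to 10 -0.063 for Sgk1, the striatal covariate 0.00012 and libraries 1 to 5 0.0084 for Klf9, and libraries 1 to 5 0.076 for Tsc22d3; leaving out single libraries gave -0.054 to 0.12 for Sgk1, -0.016 to 0.015 for Klf9 and -0.065 to 0.0027 for Tsc22d3.

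Over all transcripts, libraries with the same title number did not deviate together (correlations from -0.13 to 0.16, at most 2 of 10 pairs over 0.1). These correlations cannot decide whether the numbers mark a pairing that touches few transcripts. A replicate block left the counts at 0, 0 and 3 and the Nr3c1 difference at 0.099. The comparisons within sets of title numbers were added after the data were seen.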
